A study of Saccharomyces cerevisiae with 112 samples.

Results

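The genes followed here encode the proteasome and its transcription factor in budding yeast, Saccharomyces cerevisiae. They were chosen by systematic name, not by their values: the 14 subunit genes of the 20S core particle, 18 subunit genes of the 19S regulatory particle and RPN4, 33 genes of the 6319 with a value in the deposited table. The proteasome degrades proteins marked with ubiquitin. Its 20S core is a barrel of 2 kinds of ring, alpha rings that gate the entry and beta rings that hold the proteolytic sites. The 19S particle caps the barrel, with a base of ATPases that unfold the substrate and a lid that carries the deubiquitinase. Rpn4 is a short-lived activator that binds a shared promoter element of the subunit genes, the proteasome associated control element, and is itself degraded by the proteasome, which closes a feedback loop. In yeast cells that stop growing for lack of food, proteasomes leave the nucleus and gather in cytosolic storage granules, from which they return when food is added.

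Messenger RNA was sequenced in 8 strains at 7 times, with 2 libraries for each of the 56 combinations. Cultures were sampled in midlog growth, after 72 h at 30 °C, when they had reached saturation (starvation), at 5, 30 and 90 min after release into fresh medium, and after 1 and 2 doublings. A series here means the 7 time points of 1 strain and 1 replicate number. The wild type wt1 is an S288C strain (NKI12318) of mating type MATa with the alleles his3d200, leu2d0, lys2d0 and met15d0, with trp1d63, ura3d0 and bar1::HisG, and with HIS3, that carries an estradiol-dependent Cre recombinase under the GPD promoter. Its relatives Sir3_3xHA and Sir3_3xT7 carry a loxP tag switch at the C-terminus of Sir3 and were isolated before and after the switch, so these are not independent strains; the study's design text calls both hypomorphs of Sir3. The wild type wt2 (JOY1) derives from BY4741, with ura3D, leu2D, his3D, met15D and bar1D. The strains sir2D and sir4D are KanR replacements from the deletion collection, and sir3D (MRL5.1) is a KanR replacement in an S288C background, all 3 MATa with the same 4 auxotrophic genes deleted. The strain oeSir3 (THC70) has a W303 background, lacks its own SIR3 and expresses Sir3 with an HA tag from a galactose-induced promoter. It also carries mat, hml, lys2 and bar1 deletions, and it was grown, starved and released in galactose medium where the others had glucose. Sir2, Sir3 and Sir4 act together to silence the hidden mating-type loci and the telomeres. The labels do not say whether replicates came from separate cultures, and the p-values below rest on the spread among the libraries as given, part or all of which may be technical.

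The median gene had 4 to 119.5 reads per library, and 5146 to 5975 genes were detected. All 33 members passed the filter on low values, none of their 3696 values was 0, and their median depth ran from 107.5 reads (RPN1) to 485.25 reads (RPN8). The lowest member value rested on 3 reads (RPN9). A split not given by the labels runs through the series: replicate 1 of every strain but sir4D and oeSir3 had a separate value for zero coverage in each library and 4 to 57 reads for the median gene, whereas in each of the other 10 series the 7 libraries shared 1 such value, and these had 9 to 119.5 reads. These are called the own-zero and the shared-zero series, and values within each are given below. As the share of all genes called within each is not given and their depths differ, counts of called members within them cannot be compared. State and strain labels were checked with marker genes: HSP12, a stress protein of starved cells, had a median level of -1.46 in midlog and 6.46 in starvation (log2 against the median gene), and SIR2, SIR3 and SIR4 were listed at 0 in all 14 libraries of the strain that lacks each. The MATa marker MFA2, which encodes a-factor, had median levels of 5.38 and 5.58 in wt1 and wt2 but -2.82, -2.83 and -3.90 in sir2D, sir3D and sir4D; its part in the results below was not tested.

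Most of the subunit genes carry in their promoters the letters of the element that Rpn4 is known to bind. In the 300 bases before the start codon (RefSeq sequence, build R64), GGTGGCAAA was found on either strand in 27 of the 32 subunit genes and in 73 of 6007 promoters searched, a share of 1.22%. The shorter GGTGGCAA, which lies within it, was found in the same number of subunit genes and in 98 promoters (1.63%), and the core GGTGGC, which lies within both, in 29 subunit genes and 387 promoters (6.44%). The element began or ended between 76 bases (RPT6) and 175 bases (PUP3) before the start codon, counted to its nearest base. RPN10 and RPN13 held only the core, and PRE5, PUP1, RPN8 and RPN4 none of the 3. The stretches below show the element in capitals, from 300 to 61 bases before the start codon for the pair of beta-ring genes that moved furthest apart after release, PRE3 (chrX:434863-435102, plus strand) and PRE7 (chrII:140947-141186, plus strand).
PRE3: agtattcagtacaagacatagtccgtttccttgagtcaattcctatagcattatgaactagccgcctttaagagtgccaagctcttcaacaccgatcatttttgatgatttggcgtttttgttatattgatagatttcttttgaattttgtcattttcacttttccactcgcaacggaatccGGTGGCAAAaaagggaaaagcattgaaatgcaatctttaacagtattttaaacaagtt
PRE7: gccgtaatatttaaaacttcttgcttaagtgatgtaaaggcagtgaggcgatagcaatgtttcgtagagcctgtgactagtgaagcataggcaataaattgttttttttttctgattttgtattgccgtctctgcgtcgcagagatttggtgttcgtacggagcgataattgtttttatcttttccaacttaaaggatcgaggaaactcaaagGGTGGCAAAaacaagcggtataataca

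Shorter windows show the element, with 10 bases on each side and on the strand that reads GGTGGC, for the other genes that the results turn on and for both genes with the core alone. They are PRE2 (chrXVI:732184-732212, plus), PRE9 (chrVII:761223-761251, plus), RPN9 (chrIV:1322086-1322114, plus), RPN11 (chrVI:153259-153287, plus), RPT1 (chrXI:174048-174076, minus), RPN10 (chrVIII:498971-498996, minus) and RPN13 (chrXII:965659-965684, minus).
PRE2: acagcaaaagGGTGGCAAAacgaagaata
PRE9: ttaccctgcaGGTGGCAAAaaatttatag
RPN9: gctttcatccGGTGGCAAAagtaagaaca
RPN11: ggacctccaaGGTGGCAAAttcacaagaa
RPT1: ttagttttcgGGTGGCAAAattcggtaat
RPN10: tgtaaattccGGTGGCgaaaacccgc
RPN13: ttattcgcgaGGTGGCgaaagctttg

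Of the motifs known from regulators of RPN4, the searched stretch of RPN4 held GAANNTTC and TTCNNGAA, forms of the heat shock element, whose nearest bases lay 9 and 14 bases before the start codon and which overlap each other. GAANNTTC was found in 692 promoters (11.5%) and TTCNNGAA in 786 (13.1%). TTACTAA, read on either strand for Yap1 (471 promoters, 7.84%), and TCCGCGGA and TCCGTGGA for Pdr1 and Pdr3 (12 promoters, 0.2%, and 27 promoters, 0.449%) were not in this window. The last 30 bases before the start codon of RPN4 (chrIV:416709-416738, minus strand) show the overlapping pair in capitals.
RPN4: tcaaaagttTTCTAGAATTTTCaagcaatc

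The level of a gene is given as the log2 of its median coverage per base, so genes can be compared. It is used on 2 scales: as deposited, relative to fission yeast RNA added per mass of total RNA (the spike-in scale), or relative to the median gene of the same library, whose level is then 0 (the centred scale). In midlog wild-type cells the 32 subunit genes were expressed well above the median gene and within a narrow band. Their centred levels had a median of 2.72 and ran from 1.43 (RPN1, a scaffold of the base) to 3.76 (RPN8, the inactive partner of the lid's deubiquitinase), with an SD over genes of 0.59. In the files the alpha-ring genes are SCL1 (YGL011C), PRE8 (YML092C), PRE9 (YGR135W), PRE6 (YOL038W), PUP2 (YGR253C), PRE5 (YMR314W) and PRE10 (YOR362C), and the beta-ring genes PRE3 (YJL001W), PUP1 (YOR157C), PUP3 (YER094C), PRE1 (YER012W), PRE2 (YPR103W), PRE7 (YBL041W) and PRE4 (YFR050C). The ATPases are RPT1 (YKL145W), RPT2 (YDL007W), RPT3 (YDR394W), RPT4 (YOR259C), RPT5 (YOR117W) and RPT6 (YGL048C), and the other base genes RPN1 (YHR027C), RPN2 (YIL075C), RPN10 (YHR200W) and RPN13 (YLR421C). The lid genes are RPN3 (YER021W), RPN5 (YDL147W), RPN6 (YDL097C), RPN7 (YPR108W), RPN8 (YOR261C), RPN9 (YDR427W), RPN11 (YFR004W) and RPN12 (YFR052W), and RPN4 is YDL020C. By role, the medians of the centred level were 3.03 for the 7 alpha-ring genes, 2.86 for the 7 beta-ring genes, 2.57 for the 8 lid genes, 2.46 for the 6 ATPase genes and 2.18 for the other 4 base genes. RPN4 stood below all of them, at a centred level of 0.77 ± 0.70 (SD, n = 4).

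The band moved with the growth state. The median subunit had centred levels of 2.63 and 2.25 in the midlog libraries of wt1 (replicates 1 and 2) and 3.39 and 2.57 in those of wt2. In starvation its centred levels were 1.91, 1.44, 2.53 and 1.96 in the same order, and 30 min after release 0.94, 0.74, 1.44 and 0.90. The 30 min libraries lay below every midlog library, and each lay below the starvation library of its own series. The mean centred level of the median subunit was 2.71 ± 0.48 (SD, n = 4) in midlog, 1.96 ± 0.45 in starvation, 1.71 ± 0.26 at 5 min, 1.01 ± 0.30 at 30 min, 2.19 ± 0.36 at 90 min, 2.56 ± 0.11 after 1 doubling and 2.49 ± 0.19 after 2 doublings. Of the 32 subunit genes, 30 had their lowest wild-type mean at 30 min, as did 19.7% of all genes tested. The other 2, PRE7 and PRE9, were lowest in starvation. The spread over genes was largest at this low point, with an SD of 0.78 and centred levels from -0.49 (PRE3) to 2.72 (PRE7), and narrower after 1 doubling, with an SD of 0.43.

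**Figure D1:**
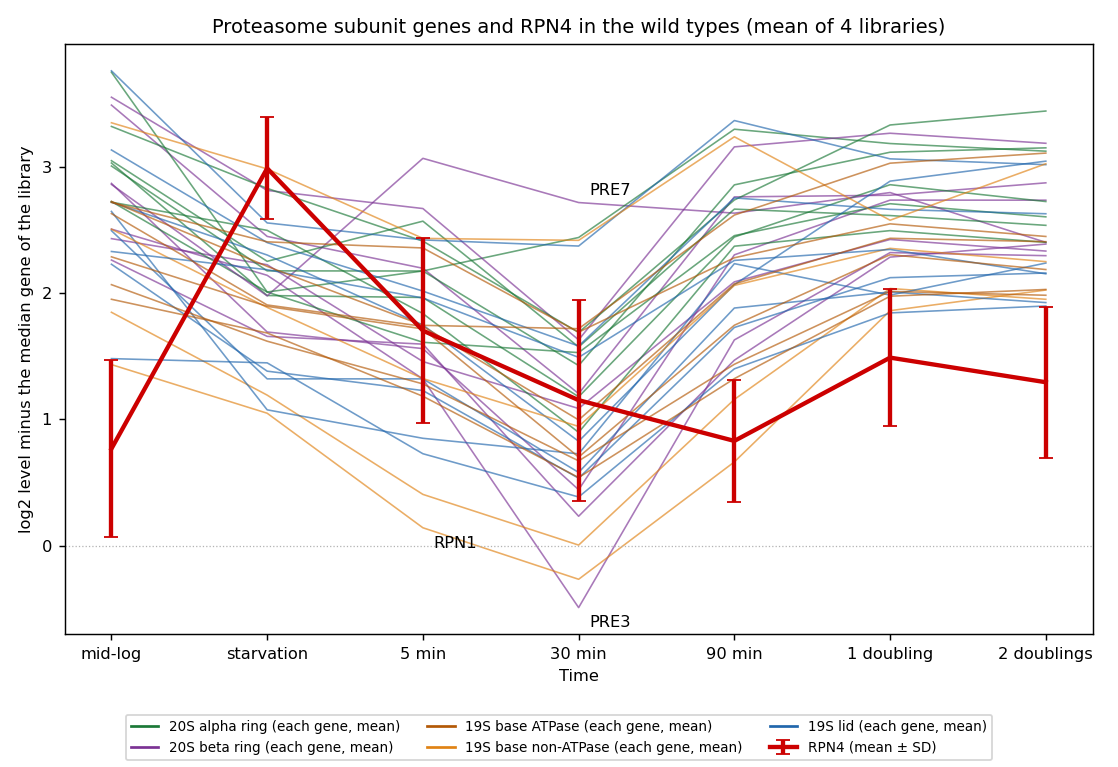
Centred log2 level (vertical axis, median gene of the library = 0) of each of the 32 subunit genes and RPN4 at the 7 times (horizontal axis); lines are means of the 4 wild-type libraries, coloured by role, with SD bars for RPN4. The subunit lines dip at 30 min, PRE3 to -0.49, while PRE7 stays at 2.72 and RPN4 peaks in starvation at 2.99.

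Subunit mRNA was a smaller part of total RNA in starvation than in midlog, and its change was larger than that of the median gene. On the spike-in scale, where 71.9% of all genes tested were called lower, all 32 subunit genes fell, from -3.76 ± 0.58 (log2 change ± SE) for PRE9, the alpha subunit that yeast can live without, to -2.05 ± 0.56 for RPN3, a lid subunit. A call means an adjusted p under 0.05 in limma (Benjamini-Hochberg over the 5567 genes tested) and a change of at least 1 log2 unit. The subunits had a median change of -2.66 (-2.79 for 20S genes and -2.50 for 19S genes), against -1.96 for all genes. In a bulk sample, fewer cells that express a gene and less RNA per cell cannot be told apart.

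Measured against the median gene, all 32 subunit genes still had a change below 0, with a median of -0.64 where all genes had 0.06. By strain, 30 subunits were lower in wt1 and 32 in wt2, where 48.7% and 48.8% of all genes were lower. The test called 7 of them lower, a share close to the 21.5% of all genes called lower (44% in either direction). PRE9 had centred levels of 3.76, 3.00, 4.72 and 3.51 in midlog (wt1 replicates 1 and 2, then wt2 replicates 1 and 2) and of 2.06, 1.43, 2.39 and 2.15 in starvation. The groups did not overlap, and PRE9 fell by 1.74 ± 0.36 (limma adjusted p = 3.78e-05). RPN9, a lid subunit, had 2.14, 2.31, 3.22 and 2.92 in midlog and 0.85, 0.69, 1.07 and 1.70 in starvation, again with no overlap, and fell by 1.57 ± 0.50. The other 5 were RPN8 (-1.20 ± 0.52), PRE2, the chymotrypsin-like subunit (-1.18 ± 0.27), the lid subunit RPN7 (-1.17 ± 0.32), PRE6 of the alpha ring (-1.05 ± 0.32) and PRE1 of the beta ring (-1.04 ± 0.29). RPN3 had the smallest change on this scale, with levels of 1.37, 1.52, 1.25 and 1.78 in midlog and 1.49, 1.49, 1.26 and 1.55 in starvation, groups that overlapped. Without wt2 replicate 1, whose midlog library had under 10 reads for the median gene, only PRE9 and RPN4 were called among the 33 genes. Within the own-zero series 5 members were called and within the shared-zero series 5, with PRE9, PRE2 and RPN9 in both.

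RPN4 went the other way. Its centred levels were 1.65, 0.77, -0.06 and 0.71 in midlog (wt1 replicates 1 and 2, then wt2 replicates 1 and 2) and 3.29, 3.24, 2.41 and 3.02 in starvation. Every starvation library lay above every midlog library. RPN4 rose by 2.22 ± 0.42 (limma adjusted p = 9.36e-06), beside 22.6% of all genes called higher. On the spike-in scale the levels overlapped, at 1.72, 1.47, -1.69 and 1.50 in midlog and 1.57, 1.39, -0.38 and 1.24 in starvation, and the change of 0.20 ± 0.59 was not called (limma adjusted p = 0.753). That change was 0.58 in the own-zero and -0.17 in the shared-zero series, and -0.59 without the libraries under 10 reads. On that scale all genes had a median change of -1.96 and the subunits one of -2.66. Relative to the median subunit of its library, RPN4 stood at -0.98, -1.48, -3.45 and -1.86 in midlog and at 1.38, 1.80, -0.12 and 1.06 in starvation.

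**Figure D2:**
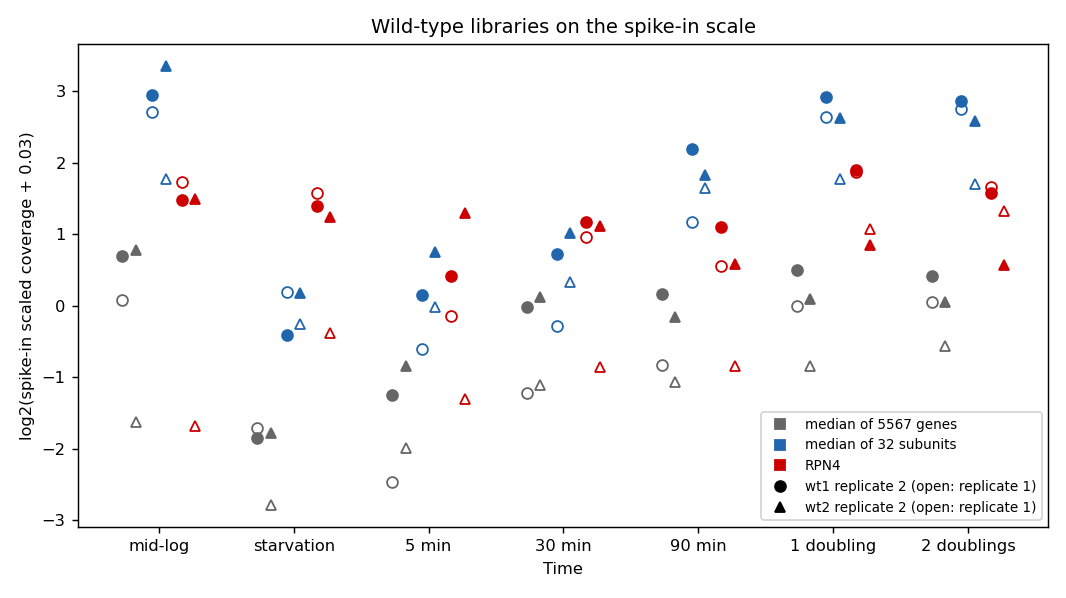
Log2 of spike-in scaled coverage plus 0.03 (vertical axis) in each wild-type library at the 7 times (horizontal axis), for the median of the 5567 genes tested, the median of the 32 subunits and RPN4; circles are wt1, triangles wt2, open symbols replicate 1. From midlog to starvation the mean level of the median subunit went from 2.69 to -0.07 and that of the median gene from -0.02 to -2.03, while the RPN4 points overlap.

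In the first 5 min after release, a single subunit gene changed on the spike-in scale. It was PRE7, a beta-ring subunit without a proteolytic site of its own. Its spike-in levels were 0.13, -0.45, -0.02 and 0.12 in starvation (wt1 replicates 1 and 2, then wt2 replicates 1 and 2) and 0.30, 1.64, 1.23 and 2.55 at 5 min. The groups did not overlap, although wt1 replicate 1 moved little. PRE7 rose by 1.49 ± 0.48 (limma adjusted p = 0.0297), where 10.3% of all genes were called higher and the subunits had a median change of 0.16 against 0.22 for all genes. The change was 2.26 and called in the shared-zero series and 0.71 and not called in the own-zero series. It was not called without wt1 replicate 2 (adjusted p = 0.616) or without wt2 replicate 2 (adjusted p = 0.325). On the centred scale PRE7 rose by 1.09 ± 0.31 (adjusted p = 0.00449) and RPN4 fell by 1.29 ± 0.42 (adjusted p = 0.0158), with 11.6% of all genes called higher and 7.98% lower (19.6% in all). RPN4 had centred levels of 2.32, 1.67, 0.68 and 2.14 at 5 min, each below the starvation level of its series.

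Between 5 and 30 min, 39.1% of all genes were called higher and 3.77% lower on the spike-in scale, and none of the 33 members was called by limma. An unadjusted p under 0.05 was reached by 3 members, and the share of all genes at that cutoff is not given here. The median subunit changed by 0.42 where the median of all genes was 1.08. PRE9 came nearest to a call (1.34 ± 0.58, limma adjusted p = 0.0542). Against the median gene, 4 subunits fell, a share of the subunits below the 14.8% of all genes called lower. They were PRE3 (-1.81 ± 0.35), PUP1 (-1.36 ± 0.31), PRE2 (-1.12 ± 0.27) and the ATPase RPT4 (-1.02 ± 0.25). PRE3, PUP1 and PRE2 carry the caspase-like, trypsin-like and chymotrypsin-like active sites of the core, and a tie to these sites was not tested. Subunits that were not called also had lower mean centred levels at 30 min: PUP3 (2.67 to 1.63), PRE10 (2.57 to 1.57) and PRE1 (2.20 to 1.20). By strain, 30 subunits were lower and 2 higher in wt1, and 28 and 4 in wt2. PUP1 had centred levels of 1.95, 1.11, 2.32 and 1.01 at 5 min and of 0.31, -0.43, 1.09 and -0.05 at 30 min, lower in every series; the groups overlapped in 1 place, wt2 replicate 1 at 30 min lying above wt2 replicate 2 at 5 min. None of these 4 calls was reached within the own-zero series alone, where 0 members were called by limma, and 9 were called in the shared-zero series. The share of all genes called in these fits is not given here.

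The low point at 30 min was also set against starvation, a comparison chosen after seeing the data. On the spike-in scale PRE7 (2.21 ± 0.48) and PRE9 (1.91 ± 0.58) rose and PRE3 fell (-1.16 ± 0.43, limma adjusted p = 0.0185), where 52.8% of all genes were called higher and 5.55% lower (58.3% in all), with a median change of 0.55 for the subunits against 1.38 for all genes. PRE3 had spike-in levels of 0.59, -0.41, 0.27 and -0.02 in starvation and of -1.44, -1.46, -0.55 and -0.75 at 30 min, with no overlap. Against the median gene, 14 subunits and RPN4 fell, beside 24.2% of all genes, and the median subunit change was -0.93 against -0.10. The fall touched 6 of the 7 beta-ring genes, 2 of 7 alpha-ring genes, 2 of 6 ATPases, 2 of 4 other base genes and 2 of 8 lid genes. This split by role was not tested. PRE3 went furthest, from centred levels of 2.30, 1.44, 3.06 and 1.76 in starvation to -0.21, -1.45, 0.57 and -0.87, a change of -2.63 ± 0.35 (limma adjusted p = 1.89e-09). The remaining beta-ring genes fell by 1.42 ± 0.31 (PUP1), 1.25 ± 0.27 (PRE2), 1.25 ± 0.29 (PRE1), 1.18 ± 0.50 (PUP3) and 1.14 ± 0.29 (PRE4).

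PRE7 is the beta-ring gene that did not follow. Its centred levels were 1.84, 1.41, 2.77 and 1.90 in starvation, 2.76, 2.90, 3.22 and 3.39 at 5 min, and 3.20, 2.15, 3.44 and 2.08 at 30 min. Those at 30 min were above the starvation level of each series, by a mean of 0.74, which was not called. In the alpha ring, PUP2 (-1.60 ± 0.41) and SCL1 (-1.14 ± 0.47) fell, and PRE9 had a change of 0.43 that was not called. The scaffolds RPN1 (-1.32 ± 0.36) and RPN2 (-1.19 ± 0.30) fell, as did the lid genes RPN6 (-1.48 ± 0.39) and RPN3 (-1.06 ± 0.20) and the ATPases RPT4 (-1.19 ± 0.25) and RPT3 (-1.14 ± 0.18). The direction of 11 of these 14 genes was above 0 on the spike-in scale, on which the median gene rose by 1.38. Within the own-zero series 5 members were called on the centred scale.

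Between 30 and 90 min the subunit genes came back while the median gene hardly moved. On the spike-in scale 31 of 32 subunits had a change above 0, with a median of 1.17 against 0.08 for all genes, and 2 passed the test, where 0.719% of all genes were called higher. PRE3 went from spike-in levels of -1.44, -1.46, -0.55 and -0.75 to 0.43, 1.52, 1.57 and 1.09 and rose by 2.20 ± 0.43 (limma adjusted p = 0.00138). PRE2 went from -0.49, 0.04, -0.37 and 0.35 to 1.50, 2.23, 1.74 and 1.83 and rose by 1.94 ± 0.47 (adjusted p = 0.0162). Neither gene's groups overlapped. An unadjusted p under 0.05 was reached by 16 members, and the share of all genes at that cutoff is not given here.

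On the centred scale 18 subunits rose, 9 of the 20S and 9 of the 19S, where 4.15% of all genes were called higher and 2.75% lower (6.9% in all). Their median change over all 32 was 1.08, against 0.00 for all genes. By role the genes that rose were 6 of 7 in the beta ring, 3 of 7 in the alpha ring, 5 of 8 in the lid, 2 of 6 ATPases and 2 of 4 other base genes, a split that was not tested. PRE3 (2.12 ± 0.35) and PRE2 (1.86 ± 0.27) led, followed by PRE1, which went from 0.83, 0.93, 1.87 and 1.18 to 2.17, 2.68, 3.28 and 2.92 with no overlap (1.56 ± 0.29). PUP3 (1.53 ± 0.50), PUP2 (1.47 ± 0.41), PRE6 (1.27 ± 0.32), PUP1 (1.24 ± 0.31), PRE10 (1.09 ± 0.26) and PRE4 (1.00 ± 0.29) completed the core genes. Among the 19S genes the lid gave RPN9 (1.51 ± 0.50), RPN7 (1.30 ± 0.32), RPN6 (1.24 ± 0.39), RPN12 (1.19 ± 0.25) and RPN3 (1.02 ± 0.20). The base gave RPN2 (1.15 ± 0.30), the ubiquitin receptor RPN10 (1.12 ± 0.29) and the ATPases RPT1 (1.08 ± 0.19) and RPT4 (1.04 ± 0.25). PRE7 (-0.08) and RPN4 (-0.32) were the 2 members with a change below 0, and neither was called.

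With 1 series left out, PRE2 and PRE3 changed by about as much, but calls were lost. On the spike-in scale the change of PRE2 was 1.79 to 2.10 with 1 wild-type series left out, and it was called in none of these 4 fits (adjusted p from 0.0877 to 0.367). The change of PRE3 was 1.92 to 2.48, and it was not called without wt1 replicate 2 (1.92, adjusted p = 0.197). Within the own-zero series no member was called by limma on either scale, although the median change over the members was 1.27 on the spike-in scale and 1.05 on the centred scale. Within the shared-zero series PRE3 was called on the spike-in scale. The count of 18 became 5 without wt1 replicate 2 and 10 without wt2 replicate 1.

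**Figure D3:**
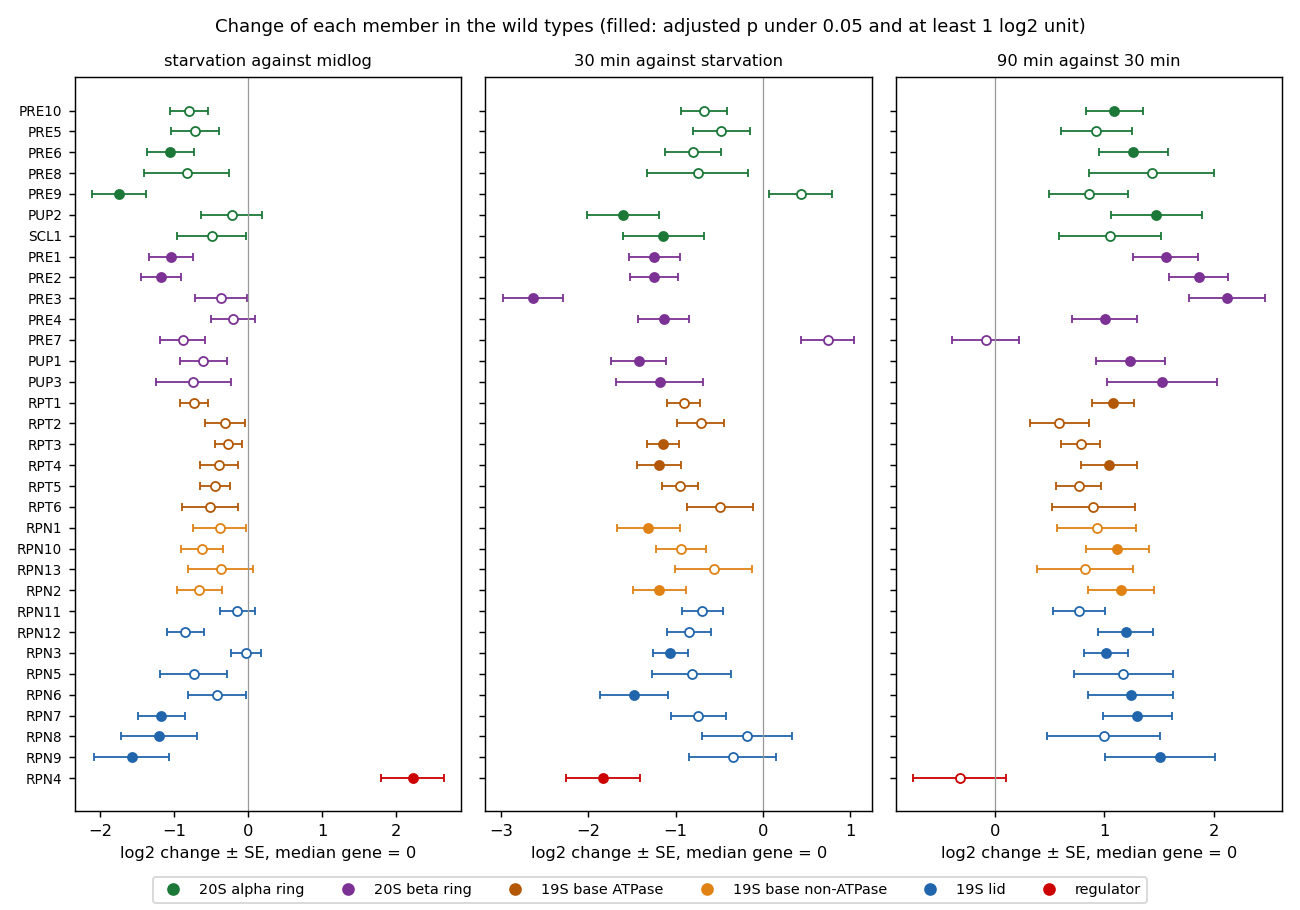
Change of each of the 33 genes in the wild types (horizontal axes, log2 change ± SE with the median gene at 0; one gene per line, coloured by role) from midlog to starvation, from starvation to 30 min and from 30 to 90 min; filled points passed the test. RPN4 is the gene to the right in starvation (2.22), PRE3 has the lowest change at 30 min (-2.63) and the highest at 90 min (2.12), and PRE7 stays near 0 at 90 min (-0.08).

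Levels at 90 min and after 1 doubling were also set against starvation, comparisons chosen after seeing the data. All 32 subunits rose by 90 min on the spike-in scale, from 1.04 ± 0.43 (PRE3) to 2.85 ± 0.58 (PRE9), where 57.1% of all genes were called higher and 5.17% lower (62.3% in all), with a median of 1.77 against 1.48 for all genes. Without wt1 replicate 2 the count of 32 became 8, and within the own-zero series 6. After 1 doubling all 32 stood above starvation on that scale, from 1.56 ± 0.53 (RPN13, a ubiquitin receptor) to 3.14 ± 0.58 (PRE9), with a median of 2.47 against 1.88 and 68.2% of all genes called higher and 4.87% lower. Centred on the median gene, PRE9 and RPN9 had risen at 90 min (1.29 ± 0.36 and 1.16 ± 0.50) and PRE9 and PRE2 after 1 doubling (1.18 ± 0.36 and 1.04 ± 0.27), while 43.5% and 45.9% of all genes were called. RPN4 fell on that scale, by 2.16 ± 0.42 at 90 min and by 1.50 ± 0.42 after 1 doubling. Its spike-in change after 1 doubling was 0.47 ± 0.59 and was not called.

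Between 90 min and 1 doubling 31 of 32 subunits had a spike-in change above 0, from -0.25 (RPN13) to 1.61 (RPN1), with a median of 0.72 against 0.36 for all genes. No member was called by limma on that scale, where 0.934% of all genes were called. At an unadjusted p under 0.05 there were 7 members, a cutoff for which the share of all genes is not given here. On the centred scale 26 subunits had a change above 0, with a median of 0.31, and RPN1 rose by 1.20 ± 0.36 (adjusted p = 0.0242), from 1.41, 0.19, 0.60 and 0.45 to 2.21, 1.55, 2.06 and 1.63 with no overlap, where 6.52% of all genes were called. Between 1 and 2 doublings limma called no member and 0% of all genes, and no member had an unadjusted p under 0.05. After 2 doublings no member differed from midlog in limma (0 at an unadjusted p under 0.05, 0.0359% of all genes called), with changes from -0.74 (RPN8) to 0.59 (RPN1). A missed threshold does not show that these levels were equal.

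The rise at 90 min was set beside the promoter element. Of the 27 with GGTGGCAAA, 16 rose on the centred scale with a median change of 1.09, where 4.15% of all genes were called higher. Of the 5 without it, 2 rose (RPN10 and PUP1), and their median change was 0.99. Outside the proteasome, 46 genes carried the same letters in their promoters and 43 were tested. The windows of 38 meet no member's window, and of the 36 of these that were tested 4 rose with a median change of 0.32, against 0.00 for all genes. They were CDC48, the segregase that delivers ubiquitinated proteins (1.88 ± 0.33), LSB3 (1.65 ± 0.45), the peptidase gene PRD1 (1.64 ± 0.29) and UBA1, the ubiquitin-activating enzyme (1.08 ± 0.29). A matched sequence describes these letters and is no evidence of binding.

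Other genes of the pathway moved less uniformly. Of 36 listed genes 33 were tested: PBA1 did not pass the filter, and TMA17 and UBI4 were not analysed here. In starvation against midlog 28 of the 33 fell on the spike-in scale, where 71.9% of all genes were called lower, with a median of -2.14 against -1.96 for all genes. SPG5, a proteasome regulator of stationary phase, rose (1.92 ± 0.60). Against the median gene 4 rose and none fell, where 22.6% of all genes were called higher and 21.5% lower: SPG5 (3.94 ± 0.26), FUB1 (1.57 ± 0.36), the base assembly chaperone NAS2 (1.32 ± 0.33) and HSF1, the heat shock factor (1.04 ± 0.30). STS1, which tethers proteasomes to the nucleus, rose in the first 5 min on both scales (2.31 ± 0.58 on the spike-in and 1.91 ± 0.24 on the centred scale).

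At 30 min against starvation 2 of the 33 rose and 16 fell on the centred scale, where 22% of all genes were called higher and 24.2% lower. By list, 1 of 8 tested assembly factors rose (POC4, a chaperone of the alpha ring, 1.02 ± 0.45) and 2 fell, and 6 of 10 ubiquitin, shuttle and Cdc48 genes fell. This difference between lists was not tested. CDC48 (-2.49 ± 0.33) and the shuttle DDI1 (-2.02 ± 0.21) fell furthest among the latter. At 90 min against 30 min CDC48 rose on the spike-in scale (1.97 ± 0.52), and on the centred scale 5 rose: CDC48 (1.88 ± 0.33), the deubiquitinase UBP6 (1.23 ± 0.22), DDI1 (1.21 ± 0.21), UBA1 (1.08 ± 0.29) and the shuttle DSK2 (1.02 ± 0.26). None of the 3 genes for the turnover of Rpn4 (UBR2, MUB1, RAD6) was called in that step. After 1 doubling 25 of the 33 had risen against starvation on the spike-in scale, where 68.2% of all genes were called higher, and SPG5 had fallen.

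The same course ran through the other glucose-grown strains. In all 16 series, oeSir3 included, the median subunit had its lowest centred level at 30 min, and in 15 RPN4 had its highest in starvation. The exception was sir3D replicate 1, with an RPN4 level of 2.82 in starvation and 2.92 at 5 min. RPN4 stood above the median subunit in 0 of 16 midlog libraries, 15 of 16 in starvation (not wt2 replicate 1), 13 at 5 min, 12 at 30 min, 2 at 90 min, 0 after 1 doubling and 1 after 2 doublings. Its centred starvation levels were 2.96 and 2.52 in sir2D (replicates 1 and 2), 2.82 and 3.01 in sir3D, 2.93 and 2.67 in sir4D, 3.21 and 2.66 in Sir3_3xT7 and 3.97 and 2.74 in Sir3_3xHA. All but the highest, Sir3_3xHA replicate 1, lay between the lowest and highest wild-type library of 2.41 and 3.29.

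Over the 7 strains other than oeSir3, the median subunit changed from midlog to starvation by -0.69 (wt2) to -0.33 (Sir3_3xT7) on the centred scale, and RPN4 by 1.26 (sir4D) to 2.39 (wt2). From starvation to 30 min the median subunit changed by -1.40 (Sir3_3xHA) to -0.55 (sir4D). From 30 to 90 min it changed by 0.89 (sir4D) to 1.23 (sir2D), with 31 or 32 of 32 subunits higher in each strain. In that step 46.1% (sir4D) to 53.2% (Sir3_3xT7) of all genes were higher. The number of subunits with their lowest level at 30 min was 29 in wt1, 27 in wt2, 28 in sir2D, 26 in sir3D, 25 in sir4D, 27 in Sir3_3xT7 and 31 in Sir3_3xHA, where 16.7% (wt2) to 24.6% (sir2D) of all genes were lowest.

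No member passed the test between wild type and sir2D, sir3D, sir4D, Sir3_3xT7 or Sir3_3xHA. The comparison took the mean of the 7 times in each series on the centred scale. Limma called 0 members in each strain, with 0 at an unadjusted p under 0.05, where 0.611%, 0.701%, 0.719%, 0.234% and 0.0898% of all genes were called in that order. The differences ran from -0.40 (SCL1) to 0.35 (RPT4) in sir2D, from -0.16 (RPN8) to 0.36 (RPN4) in sir3D, from -0.49 (PUP3) to 0.45 (RPN9) in sir4D, from -0.31 (PRE4) to 0.32 (RPN4) in Sir3_3xT7 and from -0.54 (RPN8) to 0.43 (RPN4) in Sir3_3xHA. The SE of the RPN4 differences was 0.38. In the F test of the course over time limma called 0 members in each of these strains (0 at an unadjusted p under 0.05 in 4 of them and 1 in Sir3_3xHA), where 0.269%, 0.269%, 0.162%, 0.198% and 0% of all genes were called. Differences at single times were larger than those of the means, such as -1.71 at 30 min and -1.45 at 90 min for RPN8 in Sir3_3xHA, 1.32 at 5 min for RPN1 in Sir3_3xT7 and -1.08 in midlog for RPN8 in sir2D, which were not tested singly. A missed threshold does not show that the strains were alike, and these tests share the same wild-type libraries.

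**Figure D4:**
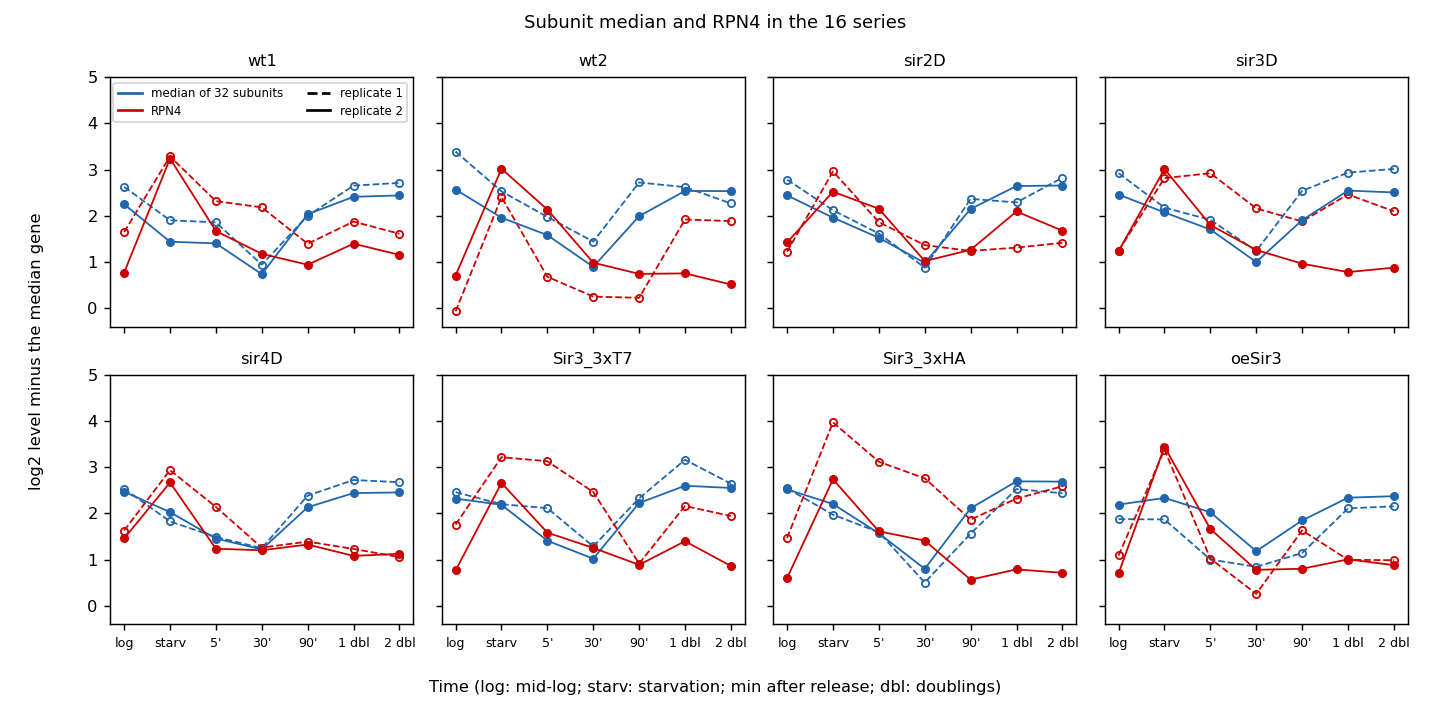
Centred log2 level (vertical axes) of the median subunit and of RPN4 at the 7 times (horizontal axes), one panel per strain, dashed lines replicate 1 and solid lines replicate 2. The median subunit is lowest at 30 min in all 16 series, and RPN4 is highest in starvation in 15, sir3D replicate 1 excepted.

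The oeSir3 strain stood apart, though a smaller share of the members than of all genes was called in it. This strain differs from the wild types in background, carbon source and Sir3 at once, which cannot be told apart here. HXT1, a glucose-induced transporter gene, had a median centred level of -4.07 in it. The HXT1 level of the wild types is not given here, so this value alone shows no difference. SIR3 was expressed at a median coverage of 11.2 on the linear spike-in scale, against 0.183 in the wild types. On the mean of the 7 times PRE7 was lower than in the wild types (-1.20 ± 0.24, limma adjusted p = 0.00706), the only member called, where 4.76% of all genes were called lower and 4.35% higher (9.11% in all). All 14 core genes lay below wild type, with a median of -0.61, and 13 of 18 19S genes, with a median of -0.20. The share of all genes below wild type on this mean is not given here. At single times 42.6% (midlog) to 59.6% (starvation) of all genes lay above wild type. PRE7 was not called within the shared-zero series, which hold both oeSir3 series (-0.88), nor without oeSir3 replicate 1 (-1.06, adjusted p = 0.104).

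The course over time differed from wild type for 11 members by the F test, a smaller share of the members than the 43.6% of all genes called. PRE7 had centred levels in oeSir3 of 2.23 and 2.49 in midlog (replicates 1 and 2), -0.24 and 0.00 in starvation, 0.18 and 0.47 at 5 min, 0.95 and 1.03 at 30 min, 1.01 and 2.07 at 90 min, and 2.52 and 2.52 after 1 doubling. Where the wild types had their highest PRE7 level, at 5 min, oeSir3 was lower by 2.74. RPN11, the lid's deubiquitinase, went from 1.63 and 1.64 in midlog to 3.22 and 4.04 in starvation. The wild-type starvation levels were lower, at 1.92, 1.72, 2.87 and 2.23. The ATPase RPT1 went from 1.88 and 2.07 to 2.72 and 3.07, where the wild types had 2.02, 1.44, 2.31 and 1.86. These differences at single times were not tested singly. The F test of the whole course gave limma adjusted p values of 3.81e-05 (PRE7), 3.57e-05 (RPN11) and 6.51e-05 (RPT1). PRE7, RPN11 and RPT1 were called in every fit that left out 1 wild-type or oeSir3 series.

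The other 8 were PRE3 (adjusted p = 0.00556), RPN3 (0.014), PRE6 (0.0161), RPT6 (0.0188), PRE2 (0.021), RPN8 (0.0249), RPT3 (0.0336) and PRE1 (0.0399). The count of 11 was 5 on the spike-in scale (PRE3, PRE6, PRE7, PUP1 and RPN2), 6 without the libraries under 10 reads (PRE3, PRE6, PRE7, RPN3, RPN11 and RPT1), and 5 without wt2 replicate 1 or without oeSir3 replicate 2. In starved oeSir3 cells 13 of 18 19S genes were above wild type, with a median difference of 0.53 (0.90 for the ATPases), and 4 of 14 20S genes, with a median of -0.39, where 59.6% of all genes were above. The difference between 20S and 19S genes was not tested, and the starvation libraries of oeSir3 had 17 and 9 reads for the median gene. RPT6, an ATPase, had 3.20 and 4.38 against 2.84, 1.94, 2.03 and 2.02 in the wild types. PRE6 had -0.14 and 0.30 against 2.10, 1.19, 2.79 and 1.84. Neither gene's groups overlapped. PRE3, at 0.04 and 0.83 in starvation, had 0.49 and 0.49 at 30 min, where the wild types had -0.21, -1.45, 0.57 and -0.87, so the groups overlapped. RPN8 differed between the oeSir3 replicates, with 3.34 and 4.83 in starvation and 0.64 and 2.50 at 30 min. The course of RPN4 was not called: it had 1.09 and 0.70 in midlog and 3.38 and 3.44 in starvation, and its F test gave an adjusted p of 0.734.

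**Figure D5:**
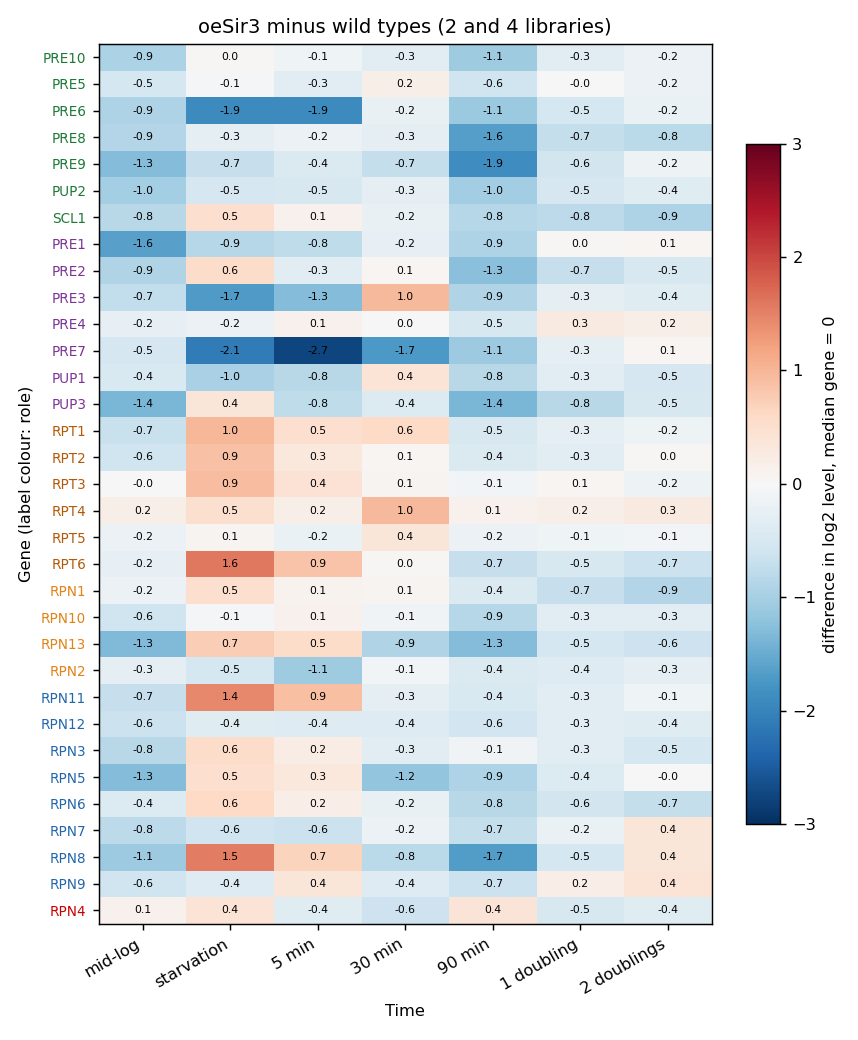
Difference in mean centred log2 level between oeSir3 (2 libraries) and the wild types (4 libraries) for each of the 33 genes (vertical axis, label coloured by role) at the 7 times (horizontal axis); red is higher in oeSir3 and blue lower. PRE7 is lower by 2.10 in starvation and by 2.74 at 5 min, while RPT6 (1.58) and RPN8 (1.53) are higher in starvation.

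The members were alike over the 56 combinations of strain and time to differing degrees. Likeness was measured as the root mean square difference between profiles of centred group means, each around its own mean; the points share libraries and depth. RPN12 lay closest to the mean of the other subunits (0.168), and no gene outside the 33 was closer to that mean than RPN12, RPN10, RPT5 or PUP2 was. For 23 of the 32 subunits fewer than 100 outside genes were closer, while 373 were closer than RPN9, 679 than PRE3 and 2014 than PRE7 (0.744). Outside the members, the genes named as most like the subunit mean were YPR147C (0.229), VAC8 (0.255), CAP1 (0.263), YMR099C (0.269), GVP36 (0.282), YKL145W-A (0.284), RVS161 (0.286), DSK2 (0.287) and SAM35 (0.290), where the median of all genes was 0.837. YKL145W-A stands next to RPT1 (YKL145W) in the naming order and is not in the R64 annotation used; whether the reads are shared was not tested. Those most like RPN4 were ASF2 (0.386), RTK1 (0.398), ECM18 (0.413), VAB2 (0.427), ENV7 (0.432), YGR127W (0.436), PCS60 (0.442), RTC1 (0.443), DAL5 (0.445) and ZRG8 (0.445), where the median of all genes was 0.956.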

How the data were processed

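Per the labels' protocols, RNA was taken up in Trizol and DNase I treated, S. pombe RNA was added at 10 to 1 by mass, and libraries of poly(A) RNA were made with either of 2 stranded kits. The deposited values were read as log2 of each coding sequence's median coverage, from the table's own name and its values; the scaling to the spike-in by the authors is stated in the design text. They therefore describe mRNA relative to total RNA, not per cell. CASAVA 1.7.0 and the build ASM294v2 (S. pombe) appear in the submitters' processing notes. Which aligner, budding yeast build, counter and strand setting were used is not given in the sources used here.

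Taken out of log2, 100% of values lay on whole reads or midpoints between neighbours, and 76.7% to 90.7% on whole reads. The 1 value off that grid in each library, shared by 344 to 1173 genes, was taken as zero coverage and set to 0. Tests used limma 3.58.1 in R 4.3.3 on log2(value + 0.03), so a fold change understates that of low genes, for the 5567 genes above 0.15 in at least 4 libraries, and were two-sided with Benjamini-Hochberg adjustment. Calls needed an adjusted p under 0.05 and an absolute log2 change of at least 1; F tests used the adjusted p alone. Time contrasts averaged wt1 and wt2 in a fit of all libraries (56 residual degrees of freedom), strain contrasts used 16 series means (8 residual degrees of freedom), and F tests used centred libraries and take those of a series as independent. The code was tested on simulated data. Of the table's genes 5694 matched a locus tag of R64, which gave names and promoters; its coordinates are those of that build. No member overlaps another gene annotated there.

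Members, lists and tests were chosen with earlier results of these data known. The rule for named genes was all members by role, in full for RPN4 and for the highest and lowest of a comparison, every called gene of the pathway lists, and the 10 genes most like each profile, of which 1 is not reported here. Tables and plots used Python 3.11.15, numpy 2.4.6, pandas 2.3.3 and matplotlib 3.10.9. Alternatives were the other scale, pseudocounts of 0.01 and 0.1, no filter, zero values kept, centring on the 740 genes with at least 10 reads in every library, low-depth libraries or a batch left out, each replicate left out, and a replicate block. Replicates correlated across genes at 0.808 to 0.990.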

Additional observations from a re-analysis of the deposited data

Results flagged for a closer look

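In 5 of the 56 wild-type groups of 4 libraries looked at (8 measures at 7 times), 1 library stood far from the other 3; the limit used is passed by chance in about 1 of 20 independent groups, and these groups share libraries and are not independent. All are replicate 1 libraries of the own-zero series. PRE3 in wt2 replicate 1 at 90 min had a centred level of 2.64, where the others had 1.25 to 1.36. The median subunit in the same library had 2.72, where the others had 1.99 to 2.04. RPN9 in wt1 replicate 1 after 1 doubling had 1.17, where the others had 2.24 to 2.27. RPN8 had 1.47 in wt1 replicate 1 at 30 min, where the others had 2.57 to 2.75, and 2.33 in wt2 replicate 1 after 2 doublings, where the others had 3.22 to 3.30.

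The time course of oeSir3 differed from that of the wild types for 11 members, by the interaction F test in limma. The adjusted p was 3.57e-05 for RPN11, 3.81e-05 for PRE7, 6.51e-05 for RPT1, 0.00556 for PRE3, 0.014 for RPN3, 0.0161 for PRE6, 0.0188 for RPT6, 0.021 for PRE2, 0.0249 for RPN8, 0.0336 for RPT3 and 0.0399 for PRE1. The count of 11 ran from 5 to 13 over the alternatives other than the replicate block, with which it was 22; RPN11, PRE7 and RPT1 were called in each fit that left out 1 series. Of all genes 43.6% were called in that test, a larger share than that of the members. The strain, the sugar and Sir3 differ together, so these cannot be told apart.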

How the results depend on the processing

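Of 350 recomputed counts of called members, 294 stayed within 1.5 times the value reported and 56 did not. The 294 include reported counts of 0 that stayed 0, so they do not measure how stable the other counts were. The cause of a move was not tested unless the setting itself gives it. On the other scale the spike-in counts became 8 (starvation against midlog), 2 (5 min against starvation), 4 (30 against 5 min), 18 (90 against 30 min), 1 (1 doubling against 90 min), 15 (30 min against starvation), 3 (90 min against starvation) and 3 (1 doubling against starvation). The oeSir3 mean gave 0 and the oeSir3 course 5. Directions turned on the centred scale for RPT4 at 30 against 5 min (-1.02). At 30 min against starvation they turned for PUP3 (-1.18), PRE1 (-1.25), SCL1 (-1.14), PRE4 (-1.14), RPT4 (-1.19), PRE2 (-1.25), PUP1 (-1.42), RPT3 (-1.14), RPN3 (-1.06), RPN2 (-1.19) and RPN1 (-1.32). Against starvation PRE3 turned at 90 min (-0.51), and RPN13 (-0.41) and RPN4 (-1.50) after 1 doubling.

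Within the own-zero series the spike-in counts were 0 (5 min against starvation), 0 (90 against 30 min), 1 (30 min against starvation) and 6 (90 min against starvation), and the centred counts 5 (starvation against midlog), 0 (30 against 5 min), 0 (90 against 30 min) and 5 (30 min against starvation). Within the shared-zero series the spike-in counts were 2, 2, 1 and 14 for 5 min against starvation, 30 against 5 min, 90 against 30 min and 30 min against starvation, the centred counts 5 (starvation against midlog) and 9 (30 against 5 min), and the oeSir3 mean gave 0. Without libraries under 10 reads the centred starvation count was 4 and the oeSir3 course 6. The oeSir3 course gave 6 with a pseudocount of 0.1 and 6 with zero values kept, which gave 2 for the oeSir3 mean; centring on 740 genes gave 0 for that mean.

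With 1 series left out, the spike-in counts were 0 to 1 (5 min against starvation), 0 to 1 (90 against 30 min), 2 to 3 (30 min against starvation), 8 to 30 (90 min against starvation) and 31 to 32 (1 doubling against starvation). The oeSir3 mean gave 0 to 2 and its course 5 to 12. The centred counts were 2 to 9 (starvation against midlog), 3 to 7 (30 against 5 min), 5 to 15 (90 against 30 min) and 12 to 14 (30 min against starvation). The numbers of the replicates are not said to mark a shared culture or day. Differences between replicates 1 and 2 correlated between times at -0.08 to 0.85 over 168 pairs (median 0.52, 153 over 0.1). As not every pair passed 0.1, the numbers were not taken as pairing. With a replicate block the counts were 2 (30 against 5 min), 6 (90 against 30 min), 1 (1 doubling against 90 min), 5 (30 min against starvation) and 22 (oeSir3 course); no other count moved by over 1.5 times. In 6 libraries the median gene had under 10 reads. For the fits that left libraries or series out, the share of all genes called is not given here.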
